A study of Mus musculus with 5 samples.

Results

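The ZFP36 family of mRNA decay factors was followed in mouse glioma cells that were stimulated with insulin-like growth factor 1 (IGF-1) while growing beside neurons. The family has 3 members in the deposited count tables, Zfp36, Zfp36l1 and Zfp36l2, out of 29495 genes in all, and all 3 passed the filter on low counts that left 15919 genes for testing. They were chosen by gene symbol, with their levels (CPM, counts scaled to a common library size) in both groups already known, so their own differences are given as a description, with no p-value. Zfp36l3, a further mouse paralog, was not analysed here.

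The proteins of this family bind AU-rich elements in the 3′ untranslated regions (3′ UTRs) of short-lived mRNAs through a pair of CCCH zinc fingers. Bound mRNAs are handed to the CCR4-NOT complex, which shortens the poly(A) tail, and then to decapping enzymes and exonucleases. Zfp36 encodes tristetraprolin, an early response gene product known for limiting tumor necrosis factor in macrophages, while the products of Zfp36l1 (BRF1) and Zfp36l2 (BRF2) are known for roles in lymphocyte and blood cell development. The kinases MK2 and AKT phosphorylate family members, which then bind 14-3-3 proteins, and their decay activity is lowered.

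The IGF-1 group held 3 libraries (replicates 3, 4 and 5) from cells given 20 ng/mL IGF-1 overnight, and the control group held 2 libraries (replicates 1 and 2) from cells without added IGF-1. In both groups the glioma cells had the genotype p53-/-;NF1-/-;tdTomato+/-, came from mice of mixed background (CD-1 with C57BL/6), were cultured next to OB neurons taken from pups of C57BL/6 mice, and were sorted on tdTomato before polyadenylated RNA was sequenced. The plating medium of the neurons held insulin and serum, and serum was also in the medium that replaced it. The labels do not say whether the libraries came from separate cultures, animals or tumor lines. The p-values therefore describe the spread among the 5 libraries, part of which may be technical.

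Totals were 18359421 to 20144181 counts with IGF-1 and 16944315 to 17365697 in the controls. Over genes averaging at least 10 CPM, log2 differences had an SD of 0.11 between IGF-1 replicates 3 and 4 and of 0.12 between the controls. The SD was 0.22 between IGF-1 replicate 5 and either other IGF-1 library, so values without replicate 5 are given where they change a count. Glial markers summed to 2176 to 2637 CPM with IGF-1 and 2043 to 2149 CPM in the controls, with Pdgfra, Olig2, Sox10 and Cspg4 abundant and Gfap at 5.78 to 10.3 CPM over all 5 libraries. The 5 neuronal markers summed to 31.0 to 43.2 CPM with IGF-1 and 30.5 to 30.6 CPM in the controls, mostly from Syn1 and Syt1, with Rbfox3 at 0 or 1 count; their part in the results was not tested. For microglia and macrophages, in which tristetraprolin is well known, 4 markers summed to 0.636 to 0.771 CPM with IGF-1 and 0.531 to 0.923 CPM in the controls. The 2 endothelial markers summed to 0.294 to 1.32 CPM with IGF-1 and 0.923 to 1.00 CPM in the controls.

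The AU-rich site that these proteins bind is also present in the family's own transcripts. The strictest form searched was the nonamer TTATTTATT, on the sense strand of the 3′ UTR, written as DNA. It contains the shorter heptamer TATTTAT. In the principal transcripts of the GENCODE M21 annotation (build GRCm38), each of the 3 members held 1 nonamer and 3 heptamers. Of 12820 tested genes with an annotated 3′ UTR, 7.89% held at least 1 nonamer and 29.4% at least 1 heptamer. The first 3 lines below show the nonamer of each member. The 4th shows the first of 5 nonamers of Tnf, the classical target of tristetraprolin. The last 2 show the first heptamer of Mcl1 and Ccnd1, target mRNAs that rose with IGF-1. Capitals mark that 1 match only, and in Tnf a further nonamer overlaps it and runs into the lower case. The sequences run 5′ to 3′, and a match is not evidence of binding.
Zfp36 (chromosome 7): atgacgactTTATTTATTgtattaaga
Zfp36l1 (chromosome 12): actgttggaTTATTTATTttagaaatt
Zfp36l2 (chromosome 17): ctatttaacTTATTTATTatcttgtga
Tnf (chromosome 17): ttgcacttaTTATTTATTatttattta
Mcl1 (chromosome 3): aaacatgtgTATTTATgaaggtgga
Ccnd1 (chromosome 7): acagaagagTATTTATgggaaaggc
The nonamer began at base 589 of the 3′ UTR in Zfp36, at base 1404 in Zfp36l1 and at base 821 in Zfp36l2. In those 3 mRNAs the 3′ UTR was 774, 1835 and 1822 bases long, in that order.

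Among the members, Zfp36l1 stood at a lower level with IGF-1, Zfp36l2 lay close to its control level, and Zfp36 was scarce in every library. Zfp36l1 had 36.6, 41.7 and 40.8 CPM in IGF-1 replicates 3, 4 and 5, against 58.1 and 58.5 CPM in control replicates 1 and 2. All 3 IGF-1 values lay below both controls, and replicate 5, the library that stood apart from the rest, lay between replicates 3 and 4. The means were 39.7 ± 2.71 CPM with IGF-1 (SD, n = 3) and 58.3 ± 0.303 CPM in the controls (SD, n = 2), a log2 difference of -0.55 with a standard error (SE) of 0.080, or 0.682 of the control level. In bulk RNA, fewer cells that express a gene and less of its mRNA per cell cannot be told apart.

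Zfp36l2 was the most abundant member. It had 192, 196 and 194 CPM in IGF-1 replicates 3, 4 and 5, against 186 and 187 CPM in the controls. The IGF-1 values lay above the controls without overlap, but by little: the means were 193.7 ± 2.07 CPM (SD, n = 3) and 186.7 ± 0.685 CPM (SD, n = 2), a log2 difference of 0.053 that was smaller than its SE of 0.058. Among all genes tested, 16.2% likewise had all IGF-1 values above all control values, and 16.8% had them all below.

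Zfp36 itself was read at 35, 22 and 37 counts in IGF-1 replicates 3, 4 and 5, against 40 and 19 counts in control replicates 1 and 2. These counts correspond to 1.93, 1.17 and 1.81 CPM with IGF-1, against 2.31 and 1.12 CPM in the controls. The groups overlapped, and the 2 controls spanned a wider range than the 3 IGF-1 libraries. Exact Poisson 95% intervals, which cover counting error only, ran from 1.65 to 3.14 CPM for control replicate 1 and from 0.675 to 1.75 CPM for control replicate 2. The log2 difference was -0.071 with an SE of 0.38, and it was 0.54 without control replicate 1 and -0.50 without control replicate 2. No change of Zfp36 was detectable in these libraries.

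**Figure D1:**
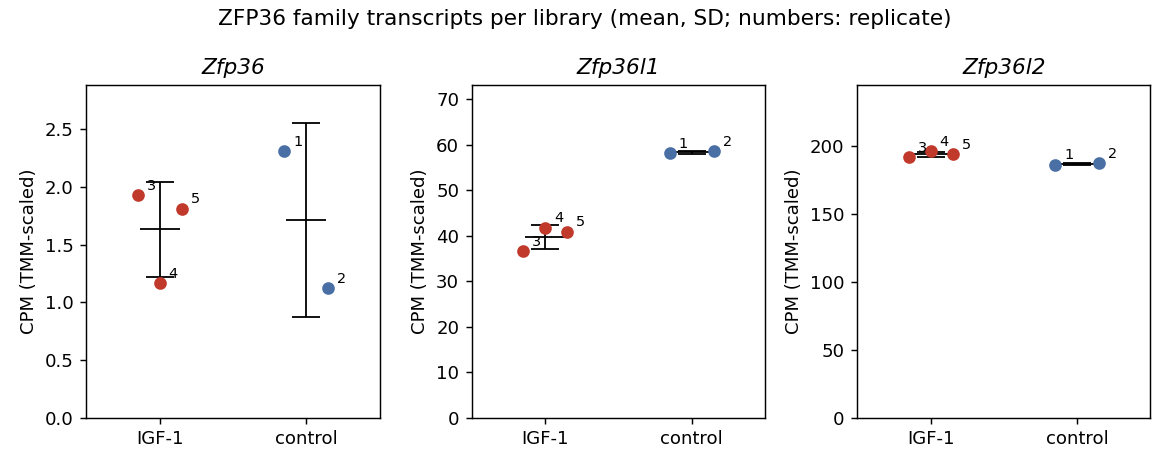
CPM scaled by TMM factors for the 3 family members, with 1 point per library, labelled by replicate number, and the mean with its SD; IGF-1 libraries are left and controls right, and each panel has its own axis from 0. Zfp36l1 sits at 36.6 to 41.7 CPM with IGF-1 and at 58.1 to 58.5 CPM in the controls, while the groups overlap for Zfp36.

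For reference, the quasi-likelihood test of edgeR, at a Benjamini-Hochberg adjusted p of 0.05, called 1.02% of all genes tested, 0.685% higher and 0.339% lower. The call list held 1 of the 3 members, Zfp36l1, as a lower gene, and 0 of them without control replicate 1, control replicate 2 or IGF-1 replicate 3. Nothing is read from these counts, because the members were chosen with this contrast known. The log2 difference of Zfp36l1 ran from -0.59 to -0.50 over the 5 fits that left out 1 library.

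Scaled to transcript length, which levels of different genes need, the order of the members was the same in both groups. Zfp36l2 had 54.9 ± 0.588 CPM per kb with IGF-1 (SD, n = 3) and 52.9 ± 0.194 CPM per kb in the controls (SD, n = 2). Zfp36l1 followed with 13.3 ± 0.908 CPM per kb with IGF-1 and 19.5 ± 0.101 CPM per kb in the controls. Zfp36 was lowest, with 0.586 ± 0.147 CPM per kb with IGF-1 and 0.615 ± 0.301 CPM per kb in the controls. Within each group, neighbours in this order were further apart than their SDs. By mean CPM, not scaled to length, Zfp36l2 lay above 93.0% of tested genes, Zfp36l1 above 66.8% and Zfp36 above 18.95%.

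The balance between the 2 abundant members differed between the groups in every library. The ratio of Zfp36l2 to Zfp36l1 counts was 5.23, 4.69 and 4.75 in IGF-1 replicates 3, 4 and 5, against 3.21 and 3.20 in the controls. Zfp36l1 made up 15.9%, 17.5% and 17.3% of the family's counts with IGF-1, against 23.5% and 23.7% in the controls. The summed level of the family was 230.2 to 238.7 CPM with IGF-1 and 246.6 to 246.8 CPM in the controls, so the groups differed less in the sum than in its makeup.

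The genes nearest to Zfp36l1 in pattern were picked for their likeness to it, so their values are a description. Nearness was measured as the root mean square difference of log2-CPM over the 5 libraries, each gene centred on its own mean, among 9485 genes of at least 10 CPM. The nearest was Irf1, an interferon regulatory transcription factor, at 0.039, then Spry1, an inhibitor of receptor tyrosine kinase signalling, at 0.040, and Mtus1, a microtubule-associated protein gene, at 0.057. Irf1 had 27.5, 31.7 and 29.9 CPM in IGF-1 replicates 3, 4 and 5, against 41.2 and 41.8 CPM in the controls. Spry1 had 85.5, 93.1 and 91.3 CPM with IGF-1, against 132 and 125 CPM in the controls. As in Zfp36l1, IGF-1 replicate 3 was the lowest library for each of them.

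Around Zfp36l2 the nearest genes were Acly, the ATP citrate lyase gene, the chromatin remodeller gene Smarca5, and Pde6d, which encodes a chaperone of prenylated proteins, at 0.0079 to 0.0090. Their log2 differences of 0.044 to 0.063 show that such closeness marks genes that varied little. The nearest genes to Zfp36, Cachd1, Nr4a2 and Tcea2, were no closer than 0.22 to 0.23. The members were not close to each other: the distance was 0.30 between Zfp36l1 and Zfp36l2 and 0.40 to 0.50 between Zfp36 and the others.

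**Figure D2:**
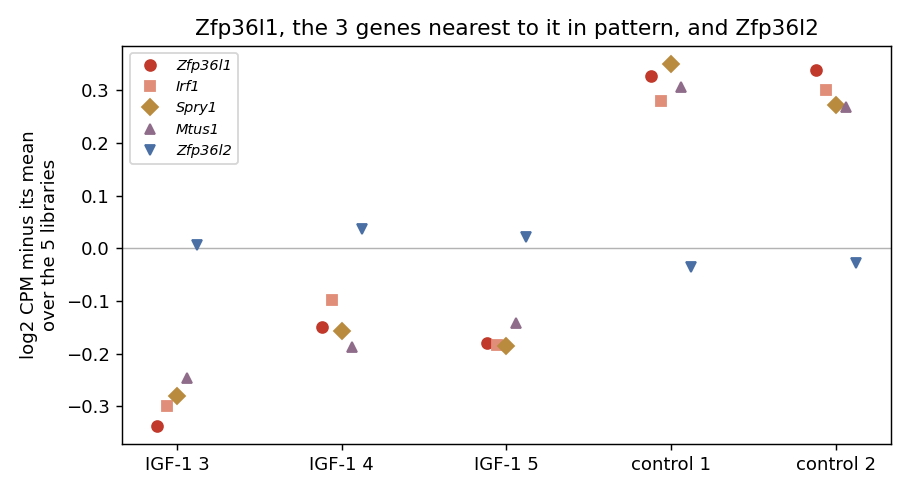
Log2 CPM of Zfp36l1, Irf1, Spry1, Mtus1 and Zfp36l2 minus each gene's mean over the 5 libraries, with IGF-1 libraries left and controls right and 1 symbol per gene. The first 4 genes lie below 0 in every IGF-1 library and above 0 in both controls, and Zfp36l2 stays within a narrow band around 0.

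In the machinery that the family recruits, no gene was called over all 5 libraries with the filter on low counts. With no such filter, edgeR called Btg1 lower, 1 of 20 deadenylation genes, and Gigyf1 lower, 1 of 29 decapping and exonuclease genes. In that fit 221 of all 29495 genes were called lower. Over all genes, DESeq2 called 1.2% higher and 0.559% lower, and an unadjusted p under 0.05 in edgeR was found for 7.1% higher and 5.57% lower. Without IGF-1 replicate 5, edgeR called 5.49% of all genes higher and 3.65% lower. With the filter, the absence of calls for the 20 deadenylation genes held with edgeR and with DESeq2. The unadjusted p by edgeR was under 0.05 for 3 lower genes, Btg1, Tob1 and Pan2, and 0 higher ones. Their log2 changes ran from -0.28 to 0.18 with a median of -0.034, against -0.0076 over all genes. Cnot1, the scaffold of CCR4-NOT to which tristetraprolin docks, had 545, 541 and 530.5 CPM in IGF-1 replicates 3, 4 and 5, against 521 and 522 CPM in the controls (log2 0.047, SE 0.058, adjusted p = 0.773 by edgeR). Pabpc1, the main cytoplasmic poly(A) binding protein gene, was at -0.028 (SE 0.067, adjusted p = 0.892 by edgeR). Btg1, which encodes an antiproliferative protein that binds CCR4-NOT, had 136, 141 and 175 CPM in IGF-1 replicates 3, 4 and 5, against 180 and 186 CPM in the controls. Without replicate 5, its highest IGF-1 library, Btg1 was called lower (log2 -0.40), as were the PAN2-PAN3 deadenylase genes Pan2 (-0.17) and Pan3 (-0.17), 3 of 20 genes where 3.65% of all genes were lower.

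Among 29 decapping and exonuclease genes, edgeR and DESeq2 also called 0, and the median log2 change was 0.045. The unadjusted p was under 0.05 for 2 higher genes, Lsm14b and Eif4enif1, and 1 lower gene, Gigyf1, shares of the list near or below the 7.1% and 5.57% of all genes. Gigyf1, a partner of the cap-binding repressor 4EHP, came closest, with 85.3, 85.6 and 82.9 CPM in IGF-1 replicates 3, 4 and 5, against 104 and 103 CPM in the controls (log2 -0.29, SE 0.061, adjusted p = 0.0589 by edgeR). Without IGF-1 replicate 5, 1 of 29, Gigyf1, was called lower, a share near the 3.65% of all genes, and 3 of 29, Eif4e2, the 4EHP gene, Eif4enif1 and Exosc1, were called higher, against 5.49%. Ddx6, the helicase gene that links deadenylation to decapping, stood at 288 ± 9.42 CPM with IGF-1 (SD, n = 3) and 296 ± 2.46 CPM in the controls (SD, n = 2), with an adjusted p of 0.823 by edgeR. Exosc10, of the nuclear exosome, was at 189 ± 7.56 CPM with IGF-1 and 179 ± 12.1 CPM in the controls (adjusted p = 0.675 by edgeR).

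Other RNA-binding proteins that act on AU-rich or related elements held no called gene among 17 tested, by edgeR or DESeq2, and had a median log2 change of 0.039. The 1 gene with an unadjusted p under 0.05 was Elavl1, which encodes HuR, a protein that stabilises many AU-rich mRNAs. Elavl1 had 200.1, 207.5 and 199 CPM in IGF-1 replicates 3, 4 and 5, against 174.5 and 170.1 CPM in the controls. The groups did not overlap, the log2 change was 0.23 with an SE of 0.060, and edgeR gave an adjusted p of 0.125 over all 5 libraries. The adjusted p by edgeR was 1.98e-05 without IGF-1 replicate 5, a fit that called 5.49% of all genes higher. It was 0.27 without IGF-1 replicate 3 and 0.33 without IGF-1 replicate 4. Hnrnpdl and Celf1, the most abundant of the list, were at 0.039 and 0.018 on the log2 scale. Without IGF-1 replicate 5, Rc3h1, which encodes the decay factor roquin, and Tia1, a stress granule protein gene, were called lower, at -0.23 and -0.22, or 2 of 17 genes against 3.65% of all genes.

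Of 26 tested genes for kinases, phosphatase subunits and 14-3-3 proteins that act on the family, edgeR called 0, and the median log2 change was 0.078. An unadjusted p under 0.05 was found for 4 higher genes, Ywhag, Ywhaz, Ywhah and Map2k3, and 0 lower ones, where 7.1% of all genes were higher and 5.57% lower. Ywhag, a 14-3-3 gene, had 293, 289 and 288 CPM in IGF-1 replicates 3, 4 and 5, against 244 and 235 CPM in the controls. Its log2 change was 0.28 (SE 0.059) with an adjusted p of 0.0669 by edgeR, and it was the 1 gene of the list that DESeq2 called (adjusted p = 0.0212). Ywhag was also the 1 gene of the list that edgeR called with no filter on low counts (adjusted p = 0.00647). In that fit 385 of all 29495 genes were called higher. Without IGF-1 replicate 5, Ywhag, Ywhaz, Ywhah, Map2k3, Akt1 and the phosphatase subunit gene Ppp2ca were called higher, 6 of 26 genes against 5.49% of all genes. Without IGF-1 replicate 3, and also without IGF-1 replicate 4, edgeR called 0 genes of this list. The same held for the deadenylation, the decapping and exonuclease, and the other RNA-binding lists. Mapkapk2, the gene of MK2, had 66.5, 63.8 and 66.7 CPM with IGF-1, against 58.2 and 63.0 CPM in the controls (log2 0.12, SE 0.070, adjusted p = 0.535 by edgeR). Mapk14, the p38 kinase gene upstream of MK2, was at 0.098 (SE 0.059, adjusted p = 0.53 by edgeR). The 14-3-3 genes Ywhae and Ywhaz were the most abundant, at -0.071 and 0.15 on the log2 scale, with adjusted p of 0.748 and 0.35 by edgeR. Levels of mRNA say nothing of phosphorylation, which was not measured.

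**Figure D3:**
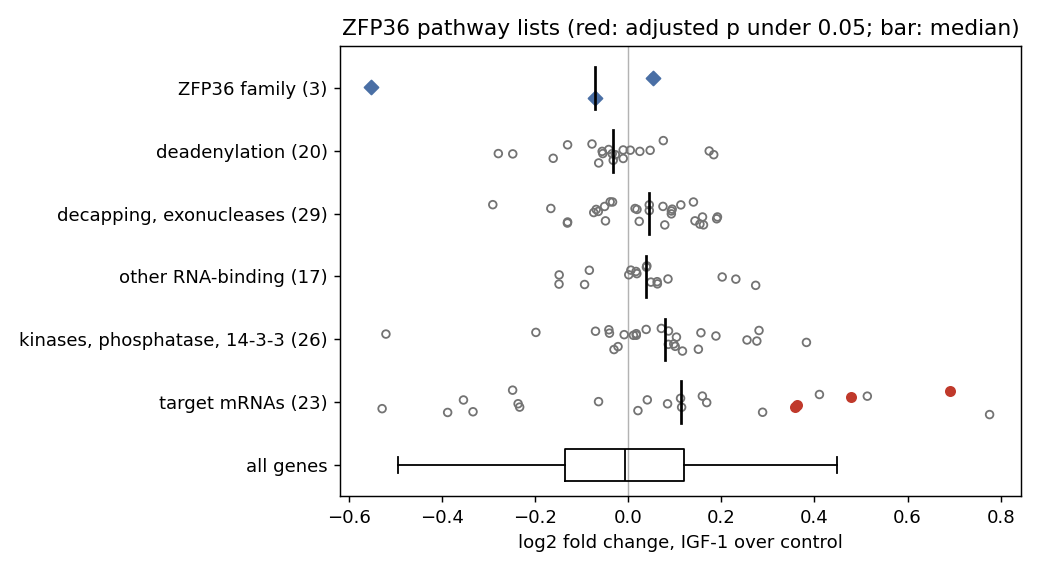
Log2 fold change, IGF-1 over control, of each tested gene in the 5 pathway lists and of the 3 family members (diamonds), with the number of genes per row; red points passed an adjusted p of 0.05, short bars are medians, and the box shows the quartiles and median of all 15919 genes with whiskers at the 5th and 95th percentiles. The 4 called genes are all in the row of target mRNAs.

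Over all 5 libraries with the filter on low counts, the pathway genes that edgeR called were all target mRNAs of the family. The list holds 34 mRNAs for which decay through this family is known in mouse or human cells, of which 32 were in the files and 23 were tested. Of these, 4 rose and 0 fell by edgeR, where 0.685% of all genes were called higher, and DESeq2 called the same 4. With no adjustment, a p under 0.05 was found for 7 higher and 6 lower targets of 23, against 7.1% and 5.57% of all genes. The median log2 change was 0.11, and changes ran from -0.53 to 0.78. Over the 115 tested genes of all 5 lists, 4 were called higher and 0 lower.

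Cdkn1a, the cell cycle inhibitor gene for p21, had 86.4, 90.6 and 90.0 CPM with IGF-1, against 65.1 and 62.6 CPM in the controls. It rose by 0.48 on the log2 scale (SE 0.066, adjusted p = 0.0109 by edgeR). Every IGF-1 library lay above both controls.

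Mcl1, a survival gene of the BCL2 family, had 142, 135 and 139.7 CPM in IGF-1 replicates 3, 4 and 5, against 105 and 110.5 CPM in the controls. It rose by 0.36 (SE 0.062, adjusted p = 0.0279 by edgeR). Ccnd1, the cyclin D1 gene, had 1400, 1429 and 1545 CPM with IGF-1, against 1141 and 1135 CPM in the controls. It rose by 0.36 (SE 0.066, adjusted p = 0.0385 by edgeR). Cdkn1a, Mcl1 and Ccnd1 did not pass without control replicate 1 or without control replicate 2, Mcl1 and Ccnd1 also did not without IGF-1 replicate 3 or 4, and Cdkn1a did not without IGF-1 replicate 4.

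Tnf and Il6, inflammatory targets for which tristetraprolin is best known, were nearly silent, while the listed chemokine target Ccl2 was not. Ccl2 had 14.2, 13.2 and 9.40 CPM in IGF-1 replicates 3, 4 and 5, against 17.5 and 17.8 CPM in the controls. Its log2 change was -0.53 (SE 0.16, adjusted p = 0.199 by edgeR). Tnf had 0, 1 and 1 counts in IGF-1 replicates 3, 4 and 5, against 4 and 4 counts in the controls. Il6 had 1, 6 and 7 counts with IGF-1, against 3 and 9 counts in the controls. Both failed the filter, as did 7 other targets, and no untested target averaged more than 0.283 CPM with IGF-1 or 0.409 CPM in the controls.

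Other targets did not pass with all libraries and the filter on low counts. With no such filter, edgeR called 6 of 32 targets higher and 2 lower over all 5 libraries. Those added were Plaur and Plk3, higher, and Ccl2 and Ier3, lower (adjusted p = 0.0103 and 0.013 by edgeR for the last 2). In that fit 385 of all 29495 genes were called higher and 221 lower. Ier3, an early response gene whose mRNA is stabilised in mouse cells lacking tristetraprolin, had 36.0, 46.3 and 41.5 CPM with IGF-1, against 53.7 and 51.9 CPM in the controls. Its groups did not overlap, and the log2 change was -0.35 (SE 0.10) with an adjusted p of 0.17 by edgeR, or 4.59e-04 without IGF-1 replicate 5. For Ier3, edgeR gave an adjusted p of 0.33 without IGF-1 replicate 3 and 0.13 without IGF-1 replicate 4. Myc had 265, 261 and 265 CPM with IGF-1, against 242 and 228 CPM in the controls, and its adjusted p was 0.28 by edgeR, or 0.00311 without IGF-1 replicate 5. For Myc, edgeR gave an adjusted p of 0.43 without IGF-1 replicate 3 and 0.42 without IGF-1 replicate 4. Vegfa stood at 83.3 ± 11.7 CPM with IGF-1 (SD, n = 3) and 82.1 ± 4.02 CPM in the controls (SD, n = 2), with an adjusted p of 0.952 by edgeR. Without IGF-1 replicate 5, edgeR called 7 of 22 targets higher, adding Myc, Plaur and Plk3, and 5 lower, namely Ccl2, Dusp1, Fos, Ier3 and Pim1, where 5.49% of all genes were called higher and 3.65% lower.

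**Figure D4:**
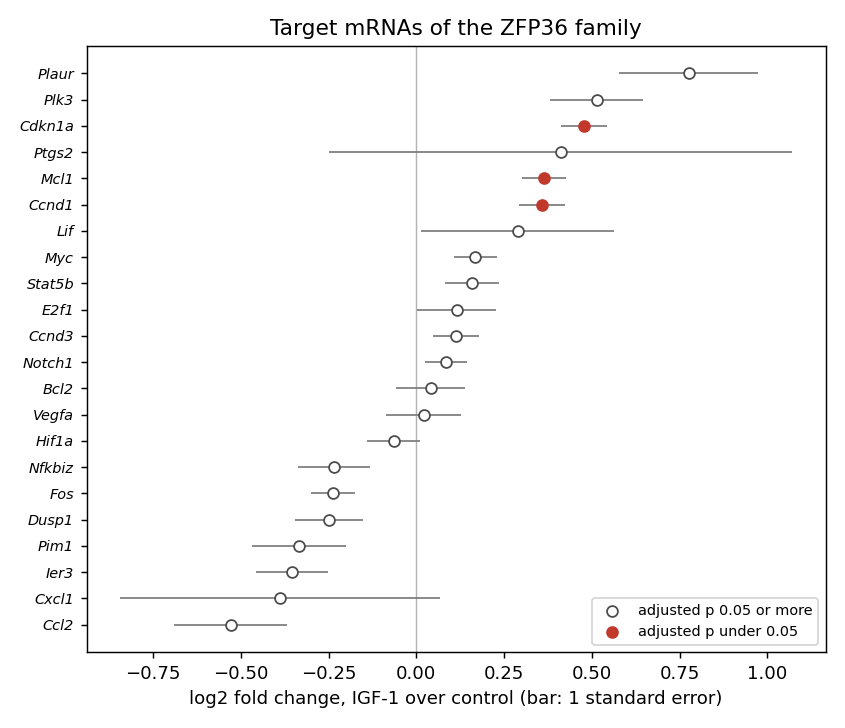
Log2 fold change, IGF-1 over control, with 1 standard error for 22 tested target mRNAs, ordered by size; filled points passed an adjusted p of 0.05. Cdkn1a, Mcl1 and Ccnd1 are filled, all above 0, and Ccl2, Cxcl1 and Ier3 lie lowest. Cxcl1 had only 10 to 22 counts per library, with overlapping groups and an SE of 0.45.

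Which called targets held the strictest binding motif depended on the libraries and on the filter. Of the 23 tested targets, 12 held the nonamer in the principal transcript's 3′ UTR. Over all 5 libraries with the filter, 0 of these were called, against 4 of the 11 without it. Without IGF-1 replicate 5, 4 of 11 targets with a nonamer were called, Plk3 higher and Dusp1, Fos and Pim1 lower, against 8 of the 11 without one. With no filter on low counts, 1 of 16 targets with a nonamer was called, Plk3, against 7 of 16 without one. Without IGF-1 replicate 3, 0 of 11 with a nonamer were called, against 2 of 11 without one. Leaving out IGF-1 replicate 4 gave 0 of 11 and 1 of 11, in that order. The difference between targets with and without the motif was not tested, and those without it include Vegfa, whose principal transcript has a 3′ UTR of only 27 bases. As printed above, Mcl1 and Ccnd1 held heptamers only, 3 and 1 in number, and Cdkn1a held neither motif. Across all tested genes with a 3′ UTR, 1.78% of the 1012 genes with a nonamer were called higher and 0.593% lower, against 0.762% and 0.364% of the 11808 genes without one. The median log2 change was 0.034 with a nonamer and -0.0040 without, on 3′ UTRs with a median length of 2290 and 991 bases, in that order. The part of 3′ UTR length in this difference was not tested.

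Early response genes that are also induced when tissue is dissociated, a group to which Zfp36 belongs, did not move in 1 direction. EdgeR called 2 of 13 listed genes, Egr1 and Junb, both lower, where it called 0.339% of all genes lower. DESeq2 called the same 2 lower, against 0.559% of all genes. With no filter on low counts, edgeR called the same 2 lower and also 2 of 13 higher, Jun and Nr4a1. In that fit 385 of all 29495 genes were called higher and 221 lower. The list's median log2 change was 0.10. Egr1 and Junb fell to 207 ± 22.3 and 98.3 ± 13.5 CPM with IGF-1 (SD, n = 3), against 332.5 ± 7.08 and 146 ± 10.7 CPM in the controls (SD, n = 2). Neither passed without control replicate 1 or 2, and Junb also did not without IGF-1 replicate 3. Jun, Nr4a1, Atf3 and Btg2 lay above the controls in every IGF-1 library, as did 16.2% of all genes tested. Without IGF-1 replicate 5, edgeR called 3 of 12 tested genes of the list higher, Jun, Nr4a1 and Atf3, against 5.49% of all genes. In that fit 4 of the 12 were called lower, Egr1, Junb, Fos and Dusp1, against 3.65% of all genes. Fos, which is both an early response gene and a target mRNA, had 165, 158 and 171 CPM with IGF-1, against 198 and 189.8 CPM in the controls (log2 -0.24, SE 0.063, adjusted p = 0.14 by edgeR). Against these levels, Zfp36 at 1.12 to 2.31 CPM was scarce, and of the 13 listed genes only Fosb, Hspa1a and Hspa1b were as low. The part of the sort in these levels was not tested.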

How the data were processed

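RNA was sequenced from 5 libraries of sorted glioma cells. The values deposited by the authors are raw read counts per gene symbol, 1 table per library. The submitters' processing notes name cutadapt 3.4, STAR 2.7.9a, featureCounts 2.0.1, DESeq2 1.28.1 and the build GRCm39. The annotation, the strand setting and the handling of multiply mapped reads are not given in the sources used here, so reads of close or overlapping genes could be shared.

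Tests used edgeR 4.0.16 under R 4.3.3. The function filterByExpr, with 10 as the minimum count and 15 as the minimum total, set which genes were tested, TMM factors were applied, and IGF-1 was set against control by the two-sided quasi-likelihood F-test. Benjamini-Hochberg adjustment ran over all 15919 genes with a threshold of 0.05. An SE is the log2 change divided by the square root of F. CPM are TMM-scaled, log2-CPM used a prior count of 2, and distances to the members used log2-CPM. The members, the gene lists, the motif search and the tests were chosen with earlier results of these data known. Of the pathway lists' 129 genes, 126 were in the files. Named genes are the up to 4 called members of each list, or its 2 most abundant, the 3 genes nearest to each member, leaving out predicted, clone-named and pseudogene symbols, and Cnot1, Mapk14, Mapkapk2, Elavl1, Tnf, Il6, Myc, Vegfa and Ier3. Others were chosen after their values were seen, as were the markers printed singly. The 3′ UTRs came from GENCODE M21 (GRCm38), and 80.5% of tested genes had one under their symbol. Genome positions are not printed because the builds differ.

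No pair of replicates looked like 1 library deposited again: chi-square per degree of freedom was 2.29 to 13.55 within groups, above sampling noise, and all 5 libraries were kept. Alternatives were RLE factors, total counts, no filter, DESeq2 1.42.0, limma-voom (limma 3.58.1) and each library left out. With 1 control left out, the spread comes from the IGF-1 libraries alone and is taken to hold for the lone control too. The procedure was tested on simulated data with 200 changed genes. It recovered 69% of the 1.5-fold and 84% of the 2-fold changes, with 12 false calls. Smaller changes were not simulated. For 1 listed gene, values are not reported here, though counts over its list include it.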

Additional observations from a re-analysis of the deposited data

How the results depend on the processing

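Zfp36l1 and Zfp36l2 kept their direction in all 10 alternatives, from -0.59 to -0.50 and from 0.046 to 0.063 on the log2 scale. Zfp36 ran from -0.50 to 0.54 with 1 library left out. Over all genes, 0 to 855 were higher and 2 to 569 lower with 1 library left out, the extremes being either control and IGF-1 replicate 5. No filter gave 385 and 221, and DESeq2 gave 191 and 89. The biological coefficient of variation, the spread that edgeR estimates between libraries of a group, was 0.077 over all 5 libraries. It was 0.032 without IGF-1 replicate 5, and 0.081 without IGF-1 replicate 3 or 4. In the pathway lists 0 to 17 were higher and 0 to 11 lower with 1 library left out, and 7 and 4 without the filter. With 1 library left out, genes that were not called changed sign: Pabpc1 (-0.066 to 0.014), Celf1 (-0.016 to 0.048), Ywhae (-0.11 to 0.0013), Vegfa (-0.063 to 0.13), Cachd1 (-0.19 to 0.29), Nr4a2 (-0.12 to 0.35) and Tcea2 (-0.12 to 0.40). For these 7 genes and Zfp36 the cause was not tested. No paired analysis was possible because the groups share no replicate numbers. Counts were low for genes such as Zfp36, Cxcl1, Tnf and Il6, at most 40 per library.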
